A study of Mus musculus with 8 samples.

Results

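A group of 8 protein-coding genes was read mainly from the father's allele in single mouse blastocysts, with 81.5% of the pooled reads paternal for Pmaip1 and 91.7% to 97.1% for the other genes. The genes are Smyd2, Sfxn1, Cblb, Myo1a, Pmaip1, Abcc4, Ednra and Fkbp6, taken by symbol from the 22810 genes of the deposited counts. They were selected on the difference between paternal and maternal reads in these same embryos, and their parental difference is therefore given as a description without a test. All 8 were among the 12565 autosomal genes that reached 10 reads in 1 or more allele libraries. Single blastocysts of embryonic day 3.5 came from natural matings, were lysed without culture, and each was sequenced on its own after SMART-Seq2 amplification of full-length cDNA. The forward cross had a B6 mother and a cast father and gave 3 embryos, and the reverse cross had a cast mother and a B6 father and gave 5. B6 stands for the laboratory strain C57BL/6 and cast for Mus musculus castaneus mice. The labels name no transgene and no treatment. The maternal allele is thus B6 in the forward cross and cast in the reverse cross, and a true parental difference keeps its direction when the strains are exchanged.

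In imprinted genes, marks placed in the egg or the sperm leave 1 parental copy active and the other silent. DNA methylation laid down in the oocyte silences many maternal copies, and in early embryos a further group of maternal copies is held silent by the Polycomb mark H3K27me3. Imprinted genes often lie in clusters, although genes that stand alone are also known. The 8 genes encode proteins of unrelated function. SMYD2 is a lysine methyltransferase, CBLB is an E3 ubiquitin ligase that restrains receptor signalling, and EDNRA is a G protein-coupled receptor for endothelin. SFXN1 carries serine into mitochondria and ABCC4, also called MRP4, exports cyclic nucleotides and other organic anions. MYO1A is a class I myosin of the intestinal brush border. PMAIP1, also called NOXA, is a pro-apoptotic BH3-only protein and a target of p53. FKBP6 is an FK506 binding protein needed for meiosis and for the piRNA pathway of the male germ line.

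Each embryo yielded between 1060063 and 1632695 reads that cover a SNP, and B6 alleles took 57.4% to 58.3% of them in every embryo. Reads of different genes are not comparable as levels, since genes differ in length and in the number of SNPs. Of 11 marker genes of the blastocyst, all 11 had reads, with a summed level of 4241 to 5225 reads per 1000000 SNP-spanning reads (RPM) in the forward cross and 1207 to 4153 in the reverse cross. The lowest sum belonged to reverse embryo 1, and the other reverse embryos lay at 3894 or more. The sum was mostly Krt8 and Krt18. In reverse embryo 1 these were at 303 and 189 RPM, against at least 1787 and 1132 in the other reverse embryos. Gata6 and Pdgfra were highest in reverse embryo 1, at 154 and 99.7 RPM. Sox17 was lowest in that embryo, at 2.66 RPM against 9.55 to 52.06 in the others. The 6 leukocyte markers summed to 688 RPM in forward embryo 1, 39.9 in forward embryo 2 and 37.6 in forward embryo 3, against 2.67 to 9.38 in the reverse cross, and 98.6% of their reads were maternal. Lyz2 alone gave 646, 33.0 and 33.7 of the forward RPM. Without Lyz2 the sums were 42.3, 6.95 and 3.91 in forward embryos and 0.943 to 9.38 in reverse embryos, and Ptprc, Tyrobp and Cd68 were at 0 in forward embryos 2 and 3. Of 5 red blood cell markers, 2 were in the counts. Hbb-bs stayed below 1 RPM, and the X-linked Alas2 ranged from 2.67 RPM to 51.2 RPM in reverse embryo 1. Cumulus cell markers, 5 of 7 in the counts, stayed at 11.3 RPM or less. Markers of uterine and oviduct epithelium, 5 of 6 in the counts, lay between 84.5 and 154 RPM and were 49.5% maternal.

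The promoter sequences of the genes differed widely in their content of CpG dinucleotides, the bases at which DNA methylation is placed. RefSeq windows of the 250 bases before the start site (build GRCm38.p6) were at hand for 7 of the 8 genes. They are shown for Sfxn1, Abcc4 and Fkbp6, whose paternal shares separated the crosses, and for Ednra, which had the fewest maternal reads. Each runs 5′ to 3′ on the strand of the gene and ends just before the start site, and capitals mark CpG. The windows lie at chr13:54071595-54071844 on the plus strand for Sfxn1, and on the minus strand at chr14:118706220-118706469 for Abcc4, chr5:135350045-135350294 for Fkbp6 and chr8:77724453-77724702 for Ednra.
Sfxn1: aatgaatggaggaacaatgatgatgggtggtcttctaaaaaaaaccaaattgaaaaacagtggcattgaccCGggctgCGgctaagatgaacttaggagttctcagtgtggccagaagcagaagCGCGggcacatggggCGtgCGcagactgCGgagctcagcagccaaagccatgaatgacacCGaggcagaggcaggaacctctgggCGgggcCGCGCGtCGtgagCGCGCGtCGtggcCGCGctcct
Abcc4: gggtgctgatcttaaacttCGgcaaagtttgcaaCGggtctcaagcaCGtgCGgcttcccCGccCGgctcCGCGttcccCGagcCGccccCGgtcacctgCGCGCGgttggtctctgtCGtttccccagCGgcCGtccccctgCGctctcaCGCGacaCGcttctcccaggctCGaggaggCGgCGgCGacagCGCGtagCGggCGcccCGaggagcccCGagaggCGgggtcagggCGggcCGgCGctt
Fkbp6: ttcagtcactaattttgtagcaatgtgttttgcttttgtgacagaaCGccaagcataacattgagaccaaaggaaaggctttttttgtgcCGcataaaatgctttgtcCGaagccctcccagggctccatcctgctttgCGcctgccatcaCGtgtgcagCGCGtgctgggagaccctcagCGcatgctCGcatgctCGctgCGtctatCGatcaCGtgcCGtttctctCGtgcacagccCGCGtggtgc
Ednra: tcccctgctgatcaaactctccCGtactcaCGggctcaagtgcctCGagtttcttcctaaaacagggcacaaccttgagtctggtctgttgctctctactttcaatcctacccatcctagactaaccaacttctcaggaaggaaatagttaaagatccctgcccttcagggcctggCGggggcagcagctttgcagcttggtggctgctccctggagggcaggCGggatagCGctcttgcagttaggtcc

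Abcc4 had 35 CpG in this window, more than 97.2% of the 27018 RefSeq promoters of the same length, and Smyd2 had 34, more than 96.6%. Sfxn1 had 19, Fkbp6 17 and Cblb 14. Ednra had 6 and Myo1a 1, more than only 49.5% and 8.25% of promoters. The median of the 7 was 17, beside 15 for 9579 tested genes and 6.5 for 100 other genes called paternal. A second RefSeq start of Fkbp6 had 29 CpG in its window, and a second start of Abcc4, inside the gene, had 4. The letters TGCCGC, the hexamer bound by the imprint-protecting factor ZFP57, were searched on both strands and occurred in the windows of Smyd2 and Fkbp6. Of all promoters 8.59% held them, and of those of tested genes 13.5%. The letters TATAAA occurred in none of the 7 windows and in 12.97% of all promoters. They occurred in 6.42% of promoters of tested genes and in 14.0% of those of other genes called paternal, so none among 7 says little. These are counts of letters in the reference, and methylation was not measured in these samples.

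Smyd2 (chromosome 1, 189880492 to 189922363, minus strand, mm10) gave 49 maternal and 701 paternal reads over the 8 embryos. The maternal and paternal reads were 19 and 86 in forward embryo 1, 11 and 85 in forward embryo 2, and 2 and 102 in forward embryo 3. In reverse embryos 1, 2, 3, 5 and 7 they were 0 and 95, 7 and 56, 0 and 91, 7 and 118, and 3 and 68. The father's allele was ahead in every embryo, and the crosses overlapped. Mean paternal shares were 89.5% ± 8.13 (SD, n = 3) and 95.8% ± 4.61 (SD, n = 5) for forward and reverse embryos. In edgeR's quasi-likelihood model with strain and parent, its paternal over maternal log2 fold change was 3.83 (SE 0.50), and it stayed between 3.53 and 4.23 when each embryo was left out in turn.

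Cblb (chromosome 16, 52031225 to 52208048, plus strand) had 59 maternal and 648 paternal reads. Forward embryos 1 and 2 held most of the maternal ones, with 22 maternal beside 62 paternal and 28 beside 81. Forward embryo 3 had 1 maternal and 100 paternal reads. The reverse embryos followed with 0 and 167, 5 and 50, 1 and 33, 0 and 111, and 2 and 44, in the order 1, 2, 3, 5 and 7. Within the forward cross the share thus ran from 73.8% to 99.01%, a wider range than the 90.9% to 100% of the reverse cross, and forward embryo 3 fell among the reverse embryos. The means were 82.4% ± 14.4 (SD, n = 3) and 96.7% ± 3.76 (SD, n = 5). The parental log2 fold change was 3.54 (SE 0.63). It was lowest without forward embryo 3, at 3.18, and highest without forward embryo 2, at 4.10.

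The transporter genes Sfxn1 and Abcc4 separated the crosses. Sfxn1 (chromosome 13, 54071869 to 54108342, plus strand) gave 43 maternal and 161 paternal reads in forward embryo 1, 21 and 141 in forward embryo 2, and 14 and 119 in forward embryo 3. Reverse embryos 1, 2, 3, 5 and 7 gave 3 and 120, 0 and 136, 10 and 203, 2 and 90, and 0 and 89. The highest forward share of 89.5% lay below the lowest reverse share of 95.3%. Means were 85.1% ± 5.53 (SD, n = 3) and 98.1% ± 1.96 (SD, n = 5), and the parental log2 fold change was 3.69 (SE 0.54, from 3.57 to 3.99 with an embryo left out).

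Abcc4 (chromosome 14, 118482692 to 118706219, minus strand) was the most deeply read of the 8, with 120 maternal and 2557 paternal reads. Of its maternal reads, 115 came from forward embryos, 58, 15 and 42 in embryos 1, 2 and 3, beside 565, 476 and 359 paternal reads. The reverse embryos gave 5 maternal reads in all, namely 2, 2, 1, 0 and 0 in embryos 1, 2, 3, 5 and 7, beside 265, 302, 279, 119 and 192 paternal reads. Every forward share, 89.5% to 96.95%, was below every reverse share, 99.25% to 100%. The parental log2 fold change was 4.86 (SE 0.73), and leaving out an embryo moved it to between 4.62 and 5.15. Both alleles of Abcc4 were at a higher level in the forward cross. Levels within their own allele libraries are counts scaled to 1000000 reads (CPM, with TMM factors). Paternal ones were 803 ± 139 (SD, n = 3) from cast and 308 ± 93.7 (SD, n = 5) from B6. Maternal ones were 50.3 ± 22.4 from B6 and 1.53 ± 1.46 from cast. Neither pair overlapped, and how many of all genes separate like this is not given here.

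Ednra and Myo1a were thinly read. Ednra (chromosome 8, 77663031 to 77724464, minus strand) had 2 maternal and 68 paternal reads. Forward embryos 1, 2 and 3 gave 12, 6 and 15 paternal reads and no maternal read, and 0 of 33 reads allow a maternal share of up to 9.09%. Reverse embryos 1, 2 and 7 gave 20, 5 and 8 paternal reads and again no maternal read, while reverse embryos 3 and 5 each had 1 read of either allele. The paternal lean of Ednra hence rested on 6 embryos, and in the other 2 nothing can be said at this depth. Over all embryos its paternal share was 97.1% (Clopper-Pearson 95% interval 90.1% to 99.65%, counting error only, as for all intervals and limits here, since the amplified reads carry no molecular identifiers). The fitted log2 fold change of 4.77 (SE 0.93) depends on the prior count that edgeR adds.

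Myo1a (chromosome 10, 127705170 to 127720940, plus strand) had 11 maternal and 175 paternal reads. Forward embryos gave 2 and 39, 0 and 20, and 1 and 15, and reverse embryos 1, 2, 3, 5 and 7 gave 4 and 45, 1 and 5, 0 and 13, 3 and 13, and 0 and 25. No cross stood apart, with shares of 96.3% ± 3.29 (SD, n = 3) and 91.3% ± 8.89 (SD, n = 5), and of the 7 genes with at least 5 reads in every embryo Myo1a alone had the lower mean share in the reverse cross. The 95% interval of reverse embryo 2 reached from 35.9% to 99.6% on 6 reads. The parental log2 fold change was 3.999 (SE 0.64, 3.76 to 4.26 with an embryo left out).

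Pmaip1 (chromosome 18, 66458533 to 66465565, plus strand) was the least skewed of the 8. It had 41 maternal and 180 paternal reads. The forward embryos gave 8 and 31, 7 and 10, and 8 and 15, and the reverse embryos gave 0 and 47, 11 and 26, 3 and 24, 1 and 20, and 3 and 7. Paternal reads led in 8 of 8 embryos, but only forward embryo 1, at 79.5%, passed a 70:30 ratio in the forward cross, while embryos 2 and 3 lay at 58.8% and 65.2%. In the reverse cross all 5 reached it, embryo 7 at 70% and embryo 2 at 70.3% just inside. The 95% intervals of forward embryos 2 and 3 included 50%, running from 32.9% to 81.6% and from 42.7% to 83.6%. Means were 67.8% ± 10.6 (SD, n = 3) and 84.9% ± 14.0 (SD, n = 5). The parental log2 fold change was 1.91 (SE 0.52), from 1.63 without reverse embryo 1, the embryo with no maternal read, to 2.25 without reverse embryo 2.

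Fkbp6 (chromosome 5, 135291704 to 135350044, minus strand) also separated the crosses. It stands on the list of published imprinted genes that the study compiled, so the 8 genes are not all outside that list. The forward embryos gave 23 maternal and 108 paternal reads, 19 and 43, and 11 and 112. In the reverse embryos 1, 2, 3, 5 and 7 the reads were 0 and 189, 2 and 471, 0 and 83, 2 and 86, and 0 and 101. Forward shares of 82.4%, 69.4% and 91.1% were all below the lowest reverse share of 97.7%, and forward embryo 2 lay just outside a 70:30 ratio. The means were 80.95% ± 10.9 (SD, n = 3) and 99.5% ± 0.986 (SD, n = 5). The parental log2 fold change was 4.38 (SE 0.54), between 4.05 without reverse embryo 2 and 4.72 without forward embryo 2.

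**Figure D1:**
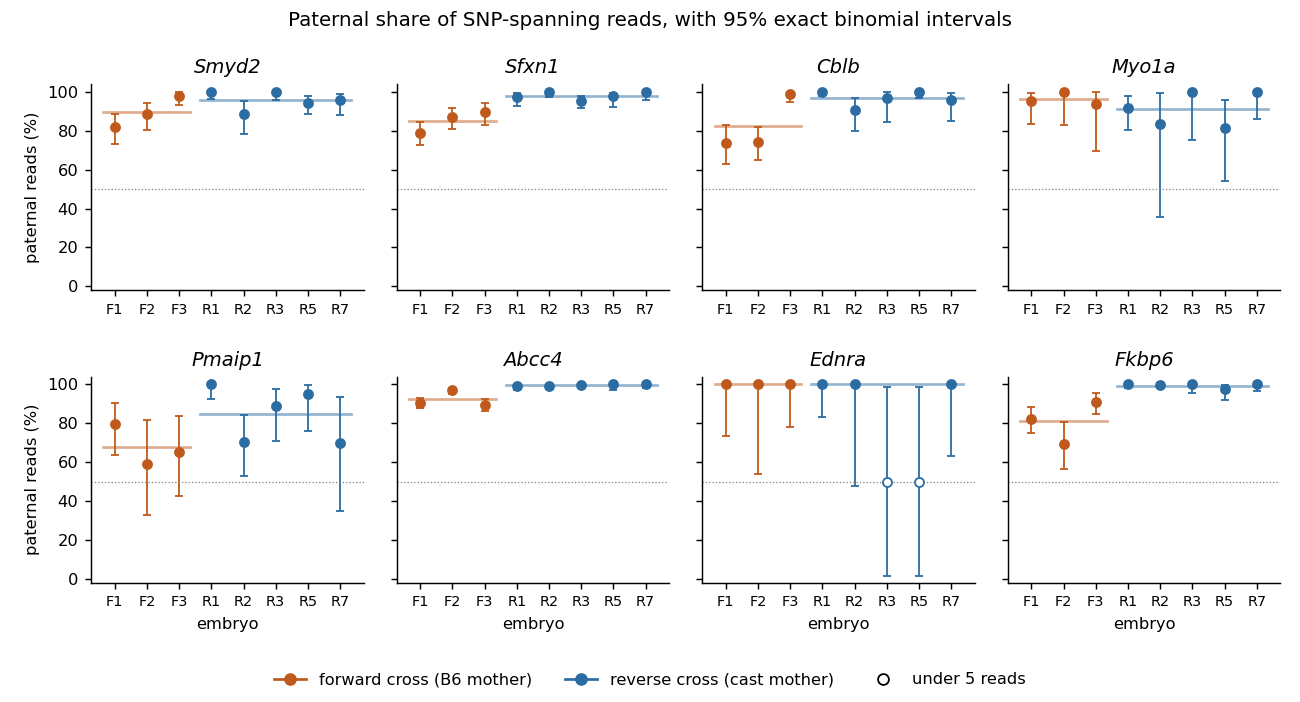
Paternal share of SNP-spanning reads in percent (vertical axis) for each embryo (F, forward, R, reverse, with its number) and gene, with exact 95% binomial intervals, horizontal lines for the mean of each cross over embryos with at least 5 reads, and a dotted line at 50%. Forward shares of Sfxn1, Abcc4 and Fkbp6 lie below all reverse shares, Pmaip1 is lowest of the 8 genes in the forward mean at 67.8%, and the open circles of Ednra hold 1 read of each allele.

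The fit called 179 genes (1.42% of those tested) for either parent at an adjusted p of at most 0.1, and 139 (1.11%) toward the father. All 8 genes were among the 139, which follows from how they were chosen. Their median parental log2 fold change was 3.92, beside -0.01 over all tested genes, where 49.2% leaned paternal. The median was 4.12 without forward embryo 1, in which leukocyte markers were highest, and 3.91 without reverse embryo 1.

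The maternal reads that remained came mostly from the forward cross, in which they are B6 reads. Forward embryos supplied 36.7% of all SNP-spanning reads, but 95.8% of the maternal reads of Abcc4, 93.0% of those of Fkbp6, 86.4% for Cblb, 83.9% for Sfxn1 and 65.3% for Smyd2. Pmaip1 followed at 56.1%, whereas Myo1a had 27.3% and Ednra none of its 2. B6 alleles took 57.4% to 58.3% of reads in every embryo, so forward embryos also supplied more than 36.7% of all maternal reads. Pooled over the 8 genes, maternal reads made up 14.1%, 10.5% and 8.62% in forward embryos 1, 2 and 3. In the reverse embryos 1, 2, 3, 5 and 7 they made up 0.940%, 2.595%, 2.15%, 2.79% and 1.48%, so the crosses did not overlap.

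Other genes behaved likewise. Among the 131 other genes called paternal, the median maternal share was 14.1%, 12.1% and 4.17% in the forward embryos and at most 1.18% in any reverse embryo. Of genes with at least 5 reads in every embryo, the forward share was the lower in 6 of 7 members, in 82.9% of 82 other paternal genes and in 73.6% of all 8400 tested genes, whose median difference was -10.9 percentage points. The leukocyte marker Lyz2 was also higher in the 3 forward embryos, 33.0 to 646 against at most 3.75 RPM. The other 5 leukocyte markers together were higher in forward embryo 1 alone, at 42.3 against 0.943 to 9.38 RPM in the remaining 7. The part of these cells in the forward maternal reads was not tested.

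A comparison of the crosses asks whether the strength of the paternal bias depended on the direction of the mating. An exact two-sided permutation test over embryos was used. Of the 7 members with 5 reads in every embryo, 3 had an unadjusted p of at most 0.05. The same held for 34.0% of the 8400 tested genes with 5 reads in every embryo. Ednra, below 5 reads in 2 embryos, is outside this comparison. The members' count is therefore near the background. The members were chosen for the same parental direction in both crosses, which bounds their shares, whereas the background genes were not. Sfxn1 differed by -12.99 percentage points (forward minus reverse), Abcc4 by -7.26 and Fkbp6 by -18.5. For each of the 3 the exact p was 0.0357, the smallest that the 56 splits of 3 against 5 embryos allow. Scaling each embryo to the median share of all genes left -9.74, -5.66 and -15.1, with the same p. How many of all genes reach this p after scaling is not given here, so the scaled values have no background. Cblb (-14.3, exact p = 0.143) and Pmaip1 (-17.0, exact p = 0.143) had gaps as wide, but their embryos overlapped. Smyd2 (-6.31, exact permutation p = 0.214) and Myo1a (5.01, exact permutation p = 0.464) did not separate either. These gaps moved with single embryos. That of Smyd2 was -2.5 without forward embryo 1 and -10.6 without forward embryo 3, and that of Cblb was -22.7 without forward embryo 3. That of Myo1a was 2.5, 3.02 and 3.15 without reverse embryo 5, reverse embryo 2 and forward embryo 2. For Ednra all 6 embryos with at least 5 reads were at 100%.

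**Figure D2:**
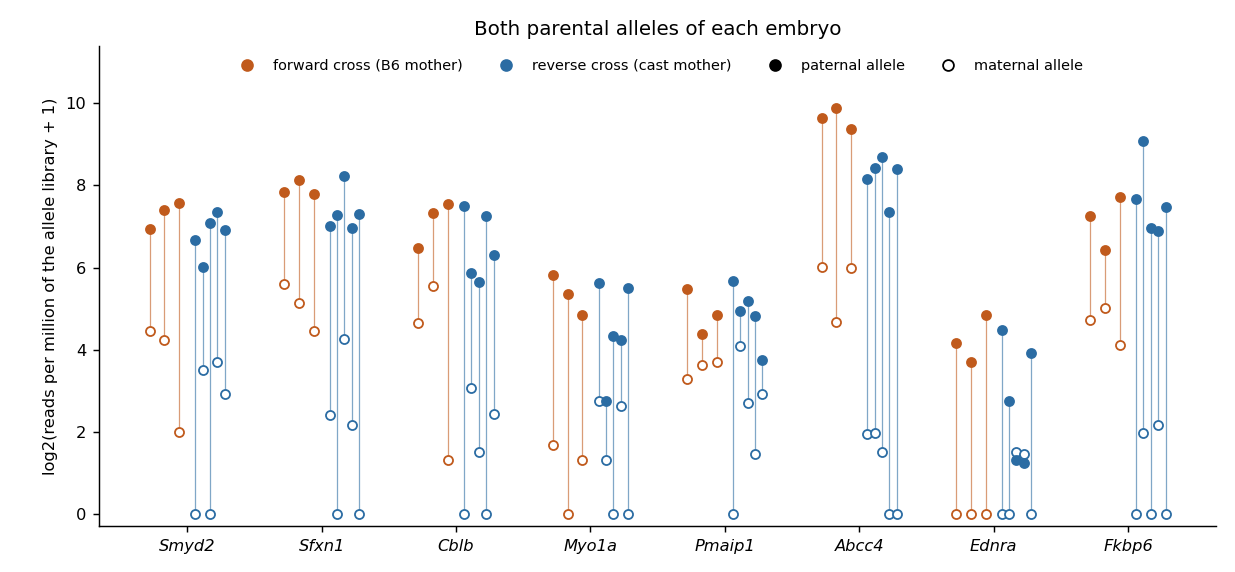
Level of the paternal (filled) and maternal (open) allele of each embryo, joined by a line, as log2 of CPM of the allele library plus 1. Paternal circles lie above maternal ones in all embryos apart from 2 reverse embryos of Ednra with 1 read each, and the maternal circles of Sfxn1, Abcc4 and Fkbp6 are higher in the forward cross (orange) than in the reverse cross (blue).

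The strain effect compares cast with B6 alleles after the parental effect is taken into account, and it is not the contrast on which the genes were chosen. Their choice did ask for the same parental direction in both crosses, which bounds the strain effect. The shares of all tested genes given beside it are free of this bound. Fkbp6 was the only one of the 8 to pass, lower from cast at a log2 fold change of -1.62 (SE 0.50, edgeR adjusted p = 0.0367), while 15.5% of all tested genes passed, 1386 toward B6 and 559 toward cast. The call was lost without forward embryo 2 (-1.43, edgeR adjusted p = 0.140) and without reverse embryo 2 (-1.29, adjusted p = 0.172). Reverse embryo 2 held 471 of the 930 paternal reads of the reverse cross. Smyd2 (-0.19, SE 0.45), Sfxn1 (-0.74, SE 0.51), Cblb (-0.77, SE 0.59), Pmaip1 (-0.37, SE 0.50) and Abcc4 (-0.69, SE 0.68) had values toward B6. Myo1a (0.69, SE 0.60) and Ednra (1.28, SE 0.84) had values toward cast. Their adjusted p-values lay between 0.400 and 0.871, so neither a strain effect nor its absence was shown.

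Adding the embryo as a model term pairs both alleles of a blastocyst, and this changed the calls. With it 3 of the 8 genes passed, beside 25.5% of all tested genes. Fkbp6 was at -2.37 (SE 0.37, edgeR adjusted p = 2.7e-05), Abcc4 at -1.68 (SE 0.29, adjusted p = 8.8e-05) and Sfxn1 at -1.16 (SE 0.31, adjusted p = 0.00726), all lower from cast. In this model the strain effect is estimated from the change of the maternal to paternal ratio between the crosses. It thus reads the same values as the share test above and passed in the same 3 genes. Cblb (-1.15, SE 0.50, edgeR adjusted p = 0.110) came closest among the rest.

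**Figure D3:**
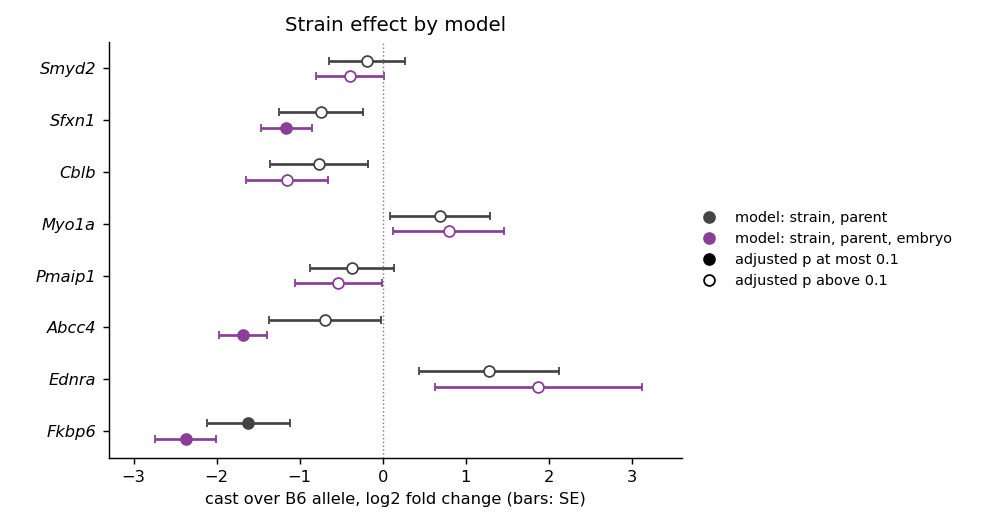
Strain effect of the 8 genes as cast over B6 (log2 fold change and SE), in the model with strain and parent (grey) and with an added term for each embryo (purple), filled where the adjusted p is at most 0.1. Fkbp6 is filled in both models, at -1.62 and -2.37, and Sfxn1 and Abcc4 only with the embryo term.

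The summed reads of both alleles show how far each gene's level varied between embryos. None of the 8 differed between crosses in edgeR's test on summed reads, and 0.0688% of 13077 genes did. At an unadjusted p of at most 0.05, 1 of the 8 and 958 of all genes passed. That gene was Abcc4, with 380, 438 and 329 CPM in forward embryos 1, 2 and 3. Reverse embryos 1, 2, 3, 5 and 7 had 160, 192, 234, 90.2 and 186 CPM. The crosses did not overlap, at 382 ± 54.7 (SD, n = 3) against 173 ± 53.2 (SD, n = 5). How many of all genes separate in this way is not given here, so the lack of overlap has no background. The reverse over forward log2 fold change was -1.15 (SE 0.33, edgeR adjusted p = 0.382). The adjusted p was 0.0763 in DESeq2, which called 136 genes, and 0.0842 in edgeR without reverse embryo 1, the embryo low in Krt8 and Krt18, a setting in which 160 genes were called. The summed blastocyst markers lay at 4241 to 5225 RPM in the forward and 1207 to 4153 in the reverse embryos. Of the pluripotency markers, Nanog was at 47.8 to 61.9 and 59.3 to 137 RPM in the forward and reverse embryos. Sox2 was at 15.66 to 41.65 and 14.39 to 27.03 RPM, and Pou5f1 at 2.605 to 12.53 and 3.986 to 8.49. The part of these markers in the Abcc4 difference was not tested.

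Fkbp6 had 66.7 to 298 CPM in the reverse cross, a 4.48-fold range set by reverse embryo 2, without which it was 66.7 to 113 CPM or 1.70-fold. In the forward cross it had 55.3 to 101 CPM. Sfxn1 ranged from 69.7 to 178, Cblb from 28.5 to 100.2, Smyd2 from 39.8 to 94.7 and Pmaip1 from 9.69 to 28.2 over all embryos. Myo1a and Ednra spanned 7.77-fold and 8.11-fold on few reads. In these single embryos, fewer cells that express a gene and less RNA per cell cannot be told apart.

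Genes next to each member were compared in the same fit, since imprinted genes often share a domain. Of 34 tested genes within 250 kb of any member, 17 leaned paternal and 1 was called, Gm27198, where 1.42% of all tested genes were. This lincRNA gene lies 21.6 kb upstream of Abcc4 on the same strand (chromosome 14, 118727794 to 118735145). It had 49, 49 and 17 paternal reads in forward embryos 1, 2 and 3, and the reverse embryos 1, 2, 3, 5 and 7 had 11, 30, 25, 37 and 22. Its 4 maternal reads fell in forward embryo 2, with 3, and reverse embryo 3, with 1. The paternal reads were ahead in 8 of 8 embryos, with a log2 fold change of 5.60 (SE 0.70, edgeR adjusted p = 2.4e-05). The gene nearest to Abcc4 downstream, Sox21, had 12 maternal and 80 paternal reads (2.66, SE 0.86, edgeR adjusted p = 0.224, and 0.0761 without a filter on low counts). Gm32045, 256 kb from Abcc4 and chosen after its values were seen, had 0 maternal and 52 paternal reads (5.97, SE 1.18, edgeR adjusted p = 0.0174). Abcc4 is thus not a single paternally read gene in its region, and reads could be shared with Gm41247, which lies within it (5 maternal and 40 paternal reads, edgeR adjusted p = 0.529).

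Around the other members, 0 of 29 tested genes within 250 kb were called by edgeR, with or without the embryo term, or by DESeq2. The members were grouped as single genes, and that choice may already have left out genes with a paternally read neighbour. The absence of calls is therefore a description and no test of whether the members stand alone. At an unadjusted p of at most 0.05, 2 of them leaned paternal and 2 maternal. The share of all tested genes at that threshold is not given here, so these counts have no background. Without a filter on low counts 4933431K23Rik, which overlaps Ednra, was called (edgeR adjusted p = 0.0462). The nearest tested genes of Smyd2 were Ptpn14 (13 maternal and 49 paternal reads, log2 fold change 1.31, SE 1.01) and, 778 kb away, Rps6kc1 (159 and 324, 0.88, SE 0.40), neither called. The 2 tested genes within 250 kb of Smyd2, Ptpn14 and Cenpf, both leaned paternal. Cenpf, named after its values were seen, had 746 maternal and 1011 paternal reads (0.43, SE 0.31) and was not called. No tested gene lay within 250 kb of Sfxn1, and the nearest were Thoc3 at 350 kb (714 and 898 reads) and Sptlc1 at 694 kb (492 and 556 reads). Alcam, 40.9 kb from Cblb, had 18 maternal reads in the forward cross and 2 paternal reads in the reverse cross. All 20 were from B6, and its strain effect passed (-4.36, edgeR adjusted p = 0.0560), but not with the embryo term (adjusted p = 0.319) or in DESeq2 (adjusted p = 0.447). The nearest tested gene on the other side of Cblb was the lincRNA gene Dubr, at 1298 kb, and it was paternal, with 3 maternal and 369 paternal reads (6.10, SE 0.60, edgeR adjusted p = 1.0e-06). Its paternal reads numbered 14 to 22 in the forward and 36 to 111 in the reverse embryos.

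Myo1a lay between Tmem194 at 4.12 kb (136 and 120 reads) and Tac2 at 3.54 kb (265 and 92). Tac2, which encodes a tachykinin, differed by strain, higher from cast (2.36, edgeR adjusted p = 0.0461), and not by parent (-0.73, SE 0.76). The neighbours of Pmaip1 were Gm9926 (0 maternal and 16 paternal reads, in 3 embryos) and Ccbe1 (42 and 16), neither called. Fkbp6 stood between Nsun5 (258 and 276 reads) and Baz1b (439 and 418), and its 10 neighbours within 250 kb had a median log2 fold change of -0.10. Ednra lies within 4933431K23Rik, a transcript of the opposite strand with 0 maternal and 23 paternal reads (4.51, SE 1.51, edgeR adjusted p = 0.304). The paper states that genes entered its calls only if their reads could be assigned to a specific transcript without ambiguity. Whether the deposited counts carry this filter, or used strand, is not given in the sources used here. Reads of these overlapping genes are therefore uncertain. Tmem184c, 52.3 kb from Ednra, had 42 and 63 reads, and Rbmxl1, at 781 kb, was read from B6 in both crosses (strain log2 fold change -6.04, edgeR adjusted p = 5.7e-08).

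**Figure D4:**
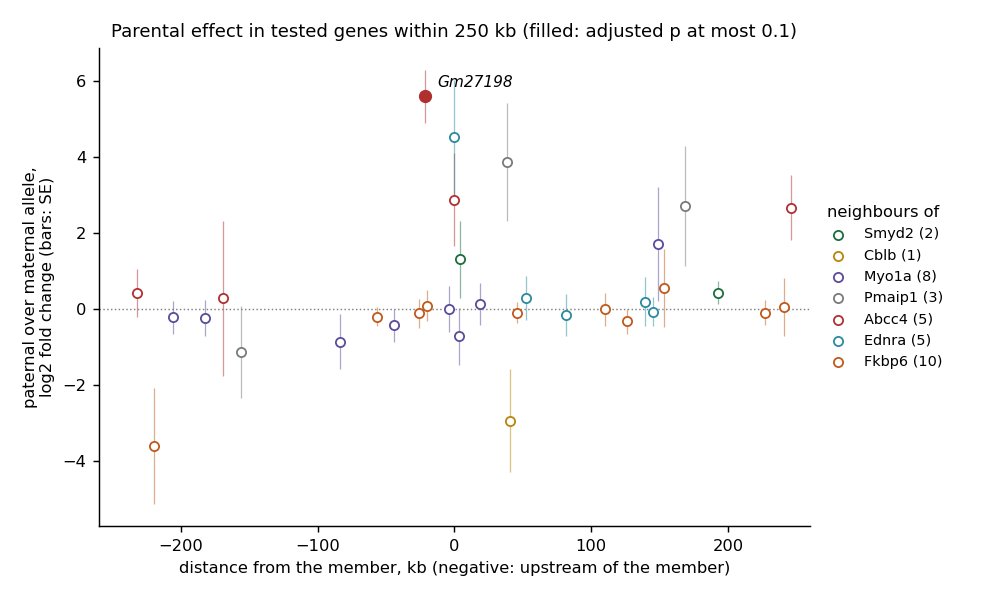
Parental log2 fold change with SE (vertical axis) of the 34 tested genes within 250 kb against their distance from the member in kb (negative, upstream), coloured by member. The filled circle is Gm27198 at 5.60, near Abcc4, and the neighbours of Fkbp6 and Myo1a lie near 0 except for a few with wide errors.

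Relatives of the 8 genes were examined to see whether a family or pathway shared the bias. Of 81 listed paralogues and partners, 49 were tested, 0 were called paternal and 1 was called maternal, against 1.42% of all tested genes. At an unadjusted edgeR p of at most 0.05, 2 were paternal and 2 maternal, again without a share of all tested genes beside them. DESeq2 called 1, Asz1. The median log2 fold change of the 49 was -0.03. The maternal gene was Asz1, which acts with FKBP6 in the piRNA pathway. Asz1 had 13, 19 and 14 maternal reads in the forward embryos, then 26, 1, 7, 12 and 8 in the reverse embryos, with 1 paternal read in all, in reverse embryo 3 (-5.87, SE 0.85, edgeR adjusted p = 1.9e-04). With at least 10 reads required in every embryo it was not tested and no relative was called. The other 6 tested piRNA genes, among them the most read, Piwil2 (124 maternal and 103 paternal reads), were not called.

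The most read relative in each family had reads from both parents. Smyd3 had 4006 maternal and 5128 paternal reads (-0.03, SE 0.37), Cbl 477 and 577 (0.25, SE 0.34), and Sfxn2 218 and 156 (-0.18, SE 0.47). In the BCL2 family, Bad, a BH3-only gene as Pmaip1 is, had 1067 and 1342 reads (0.32, SE 0.42). Among the FK506 binding proteins the 8 tested genes ranged only from -0.38 to 0.17, with Fkbp4 at 3859 and 4152 reads. Of the transporters Abcc5 had 598 and 542 reads (-0.17, SE 0.35). The converting enzyme Ece2, which makes active endothelin, had 233 and 180 reads, and of the ligands only Edn2 was tested, with 25 and 10. Among thinly read relatives, Sfxn3 had 2 maternal and 24 paternal reads (2.78, SE 1.18, edgeR adjusted p = 0.529) and Abcc8 had 5 and 56 (2.24, SE 1.05, edgeR adjusted p = 0.673), and both were named after their values were seen.

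The class I myosin Myo1e stood apart with the embryo term. It was the most read of its family, with 2437 maternal and 5025 paternal reads, and paternal reads led in 8 of 8 embryos. The pattern was uneven, with maternal and paternal reads of 718 and 991, 741 and 776, and 532 and 913 in the forward embryos. Reverse embryos 1 and 2 had 2 and 266 and 5 and 253, whereas reverse embryos 3, 5 and 7 had 178 and 711, 151 and 577, and 110 and 538. Its log2 fold change of 1.35 (SE 0.71) did not pass (edgeR adjusted p = 0.769), but it passed once the embryo was a term (edgeR adjusted p = 1.7e-04).

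By strain, 5 of the 49 relatives passed, 1 toward B6 and 4 toward cast, against 15.5% of all tested genes. With the embryo term 15 passed, 5 toward B6 and 10 toward cast, against 25.5%. In the model without it, toward B6 was Abcc8, a subunit of potassium channels (-5.20, edgeR adjusted p = 0.00507). Toward cast were Abcc3 (3.97, edgeR adjusted p = 0.00417), the BH3-only gene Bik (5.62, adjusted p = 5.7e-05), Myo1g (4.50, adjusted p = 0.0114) and Myo1h (0.91, adjusted p = 0.0625), by the same edgeR test.

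**Figure D5:**
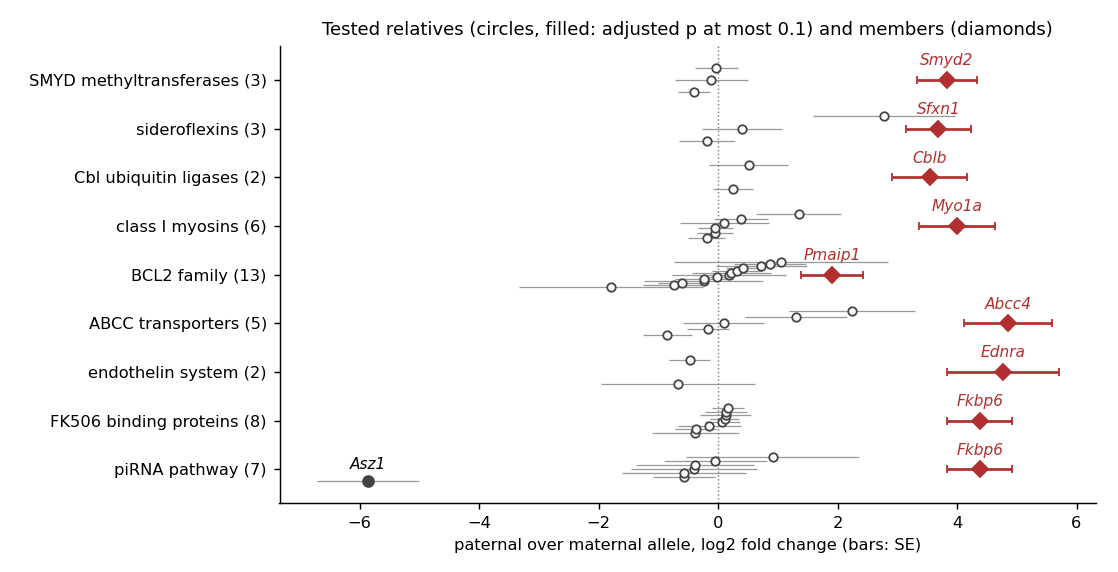
Parental log2 fold change with SE of the 49 tested relatives (circles, by family, with the number tested in brackets) and of the 8 members (red diamonds, shown as a description). Asz1 at -5.87 is the only filled relative (adjusted p at most 0.1), and every diamond lies at 1.91 or higher.

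For each member the gene with the most similar profile was sought among tested genes with at least 100 reads, by Pearson's r of log2(CPM + 1) over the 16 allele libraries. The libraries share embryos and depth, so r is a description. They also hold the maternal and the paternal allele of each embryo. A gene with the parental difference on which the members were chosen thus gets a high r. A paternally read match follows largely from that choice, and shared regulation was not tested. Sfxn1 was most like Abcc4, itself a member (r = 0.933). Smyd2 was most like Gab1 (r = 0.974, 59 maternal and 2019 paternal reads), Cblb like Rbms1 (r = 0.952, 18 and 586), Abcc4 like Smoc1 (r = 0.955, 56 and 1120) and Fkbp6 like Epas1 (r = 0.960, 23 and 1585). Myo1a was most like Airn, the paternal RNA of the Igf2r domain (r = 0.886, 45 and 687 reads), and Ednra like Gm3134 (r = 0.868, 1 and 235). Pmaip1 was most like Gtf3c1 (r = 0.866), of whose reads only 61.8% were paternal.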

How the data were processed

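Single E3.5 blastocysts were sequenced, 3 of the forward and 5 of the reverse cross. The authors aligned reads to mm10 with STAR (version 2.6.0c in the methods, 2.5.2b in the submitters' processing notes), excluded reads mapping to several places, and deposited raw counts from Allelome.Pro, which give the reads over SNPs by gene, embryo and strain. No column was left unused. Positions came from GENCODE M21 and RefSeq. Counts were tested with edgeR 4.0.16 (R 4.3.3, limma 3.58.1), TMM factors, strain and parent as terms, the quasi-likelihood test and Benjamini-Hochberg adjustment over 12565 autosomal genes with at least 10 reads in at least 1 of 16 allele libraries, with a call at an adjusted p of at most 0.1. Summed reads were tested by cross. Shares needed 5 reads per embryo and were compared by an exact permutation test (scipy 1.17.1). DESeq2 1.42.0, other scalings and filters, an embryo term and leaving out each embryo were alternatives. Tests were tried on simulated counts first.

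The members, gene lists and tests were chosen with earlier results of these data known. Named are the members, their nearest tested genes, called genes within 250 kb, called relatives and the most read relative of each family, and the most similar gene of each member. The labels give separate embryos and no litters. In the share test and the test on summed reads, p-values measure the spread between these embryos. The model with strain and parent treats the allele libraries as independent, so its p-values measure the spread between libraries and ignore their pairing. Only the model with the embryo term takes the pairing into account. The alleles of 1 embryo are a true pair, and their deviations correlated with r of 0.0892 to 0.147 in forward and 0.166 to 0.531 in reverse embryos over 9330 genes. X-linked genes were not tested.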

Additional observations from a re-analysis of the deposited data

Results flagged for a closer look

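In groups of 5 reverse embryos, 15 sets of values were screened for an embryo far from the others, of which chance gives about 1 in 20, and 3 were found. Sfxn1 had 178.4 CPM of summed reads in reverse embryo 3, against at most 86.2 in the other reverse embryos. Fkbp6 had 298.4 CPM in reverse embryo 2, against at most 113 in the others, and the strain effect of Fkbp6 was lost without that embryo. The paternal share of Fkbp6 was 97.73% in reverse embryo 5, on 88 reads, and at least 99.6% in the others, a gap that amounts to 2 maternal reads.

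The paternal share differed between the crosses in an exact permutation test for Sfxn1 (forward minus reverse -12.99 percentage points), Abcc4 (-7.26) and Fkbp6 (-18.51), each with p = 0.0357, beside 34.0% of genes with such a p.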

How the results depend on the processing

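The members tested kept a paternal direction under all 14 alternatives of the allele model. Their median log2 fold change was 3.80 to 4.12 with 1 embryo left out, and 3.75 with at least 10 reads in every embryo, where Myo1a and Ednra were not tested. The number with a strain call was 1, rose to 3 with a replicate block (a term for each embryo), and was 0 to 1 with an embryo left out, being 0 without forward embryo 2 or reverse embryo 2. The strain value of Smyd2, not called, ranged from -0.51 to 0.11 with an embryo left out, above 0 without forward embryo 1. The number of relatives with a parental call was 1, and 0 with at least 10 reads in every embryo, 2 without a filter and 2 with the replicate block, the added gene being Myo1e. With an embryo left out it stayed 1. The number of genes within 250 kb with a parental call was 1, 3 without a filter on low counts (Gm27198, Sox21 and 4933431K23Rik) and 2 within 500 kb. Gm27198 was called in each of these settings. The setting without a filter looked at the same 34 genes, so neighbours too thinly read for the main fit were not examined. The number of members with a cross difference of summed reads was 0, and 1 in DESeq2. It was 0 to 1 with an embryo left out, being 1 without reverse embryo 1. The embryo numbers of the labels mark nothing shared between crosses, and a replicate block on them gave 0 members and 21 genes in all. This block and the scaling of shares were added after the data had been seen. The share test gave the same 3 genes with at least 1 or 10 reads per embryo. With at least 1 read the Ednra difference was 20 percentage points, and 5.41 with pooled reads. Over all genes, strain calls numbered 1068 to 3207, parental calls 75 to 406 and cross calls 0 to 160, beside 1945, 179 and 9. The block changed no other call of a member. Few maternal reads limit Ednra and Myo1a. The causes were not tested.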
